A study of Mus musculus with 3 samples.

Results

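The respiratory chain genes described here are the nuclear genes that build complexes I to V of the mitochondrial inner membrane, together with cytochrome c and the factors that assemble the complexes. They were chosen by name: the single gene symbol given to a spot had to begin with Nduf, Sdha, Sdhb, Sdhc, Sdhd, Uqcr, Atp5, or Cox and a number, or had to be Cyc1 or Cycs. That rule found 69 genes of 7984 named on the arrays, carried by 195 of 16273 spots. Of the 69 genes, 51 encode subunits (18 of complex I, 2 of complex II, 9 of complex III, 1 for cytochrome c, 10 of complex IV and 11 of complex V), 3 encode tissue isoforms of complex IV, and 15 encode assembly factors. The 61 genes with a ratio on all 3 arrays were tested, and 8 were not. RefSeq lists 111 protein-coding mouse genes under the same name rule, so 42 of them were not measured by a named spot.

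Mouse liver RNA was set against mouse spleen RNA on 3 two-colour cDNA arrays, which form a single group. On each array spleen carried the green dye Cy3 and liver the red dye Cy5. Both tissues were commercial total RNA preparations from Clontech, amplified by 2 rounds to cRNA before labelling; strain, age, sex and pooling of animals are not stated in the labels. The arrays are numbered as repeats without a statement that they came from separate animals or RNA lots. Each p-value below thus rests on the spread over arrays, moderated by that of all genes, and not on a known spread over animals. That spread may be technical. Where spots of a gene lacked a ratio on some arrays, its array values average different spots, which can change the spread. For Cox6b1 the SD was 0.55 with all spots and 0.03 with spots that had a ratio on all 3 arrays. Since liver was red on every array, tissue and dye cannot be told apart.

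The values are log2 ratios of the channels, as deposited, and a positive value is read here as higher in liver. The labels do not name the numerator, so this direction is likely rather than stated. It rests on marker genes: all 4 tested liver markers lay on the positive side (Apoc3, Apoh, Fgb and Rbp4, median 4.65), and all 8 tested spleen leukocyte markers on the negative side (median -3.34). The arrays listed an exact 0 for 19.7%, 31.7% and 6.53% of spots on arrays 1, 2 and 3, which was treated as a missing ratio. Erythroid markers lay mostly on the spleen side (5 of 6 tested, median -1.57), and genes known from muscle mostly on the liver side (5 of 6, the member Cox6a2 among them, median 0.62). The part of blood cells or muscle RNA in the ratios below was not tested. RNA of whole tissue cannot tell fewer cells with a transcript from less of it per cell, and a ratio says nothing about the level of a transcript in either tissue.

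The respiratory chain passes electrons from NADH (through complex I) and from succinate (through complex II) to coenzyme Q, then through complex III, the small carrier cytochrome c and complex IV to oxygen. Complexes I, III and IV pump protons across the inner membrane, and complex V, the ATP synthase, lets them flow back to make ATP. Most subunits are encoded in the nucleus and a few in the mitochondrial genome; liver cells hold many mitochondria and rely on this chain, while spleen is dominated by lymphocytes and other blood cells.

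Nearly all tested subunit genes were higher in liver, in each of complexes I to V, with medians per complex from 1.31 to 1.72 on the log2 scale. Of 47 tested subunit genes, 44 passed the test on the liver side, 1 on the spleen side (Cox6a1, through a single clone) and 2 did not pass (Ndufa1 and Ndufa13). The median log2 ratio over these subunits was 1.58, a 2.99-fold difference, and 45 of the 47 were positive on every array. Of 12 tested assembly factors under the name rule, 4 were higher in liver and 8 were not called, and their median was 0.09. A wider list of 30 tested assembly factors, which holds 11 of these 12, had 19 higher in liver and a median of 0.62. Over all 61 tested members, 50 were higher in liver, against 27.1% of the 5731 genes tested, and 1 was higher in spleen, against 27.8%; 54.9% of all genes were called in either direction and the median of all tested genes was -0.03. The test was limma's moderated test of the mean ratio against 0 with Benjamini-Hochberg adjustment over all genes, and a gene was called at an adjusted p under 0.05. A mean of at least 1, a 2-fold difference, was reached by 41 of the 47 subunits against 13.5% of all genes, and 22 subunits passed limma's test against a 2-fold difference, against 7.31% of all genes.

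**Figure D1:**
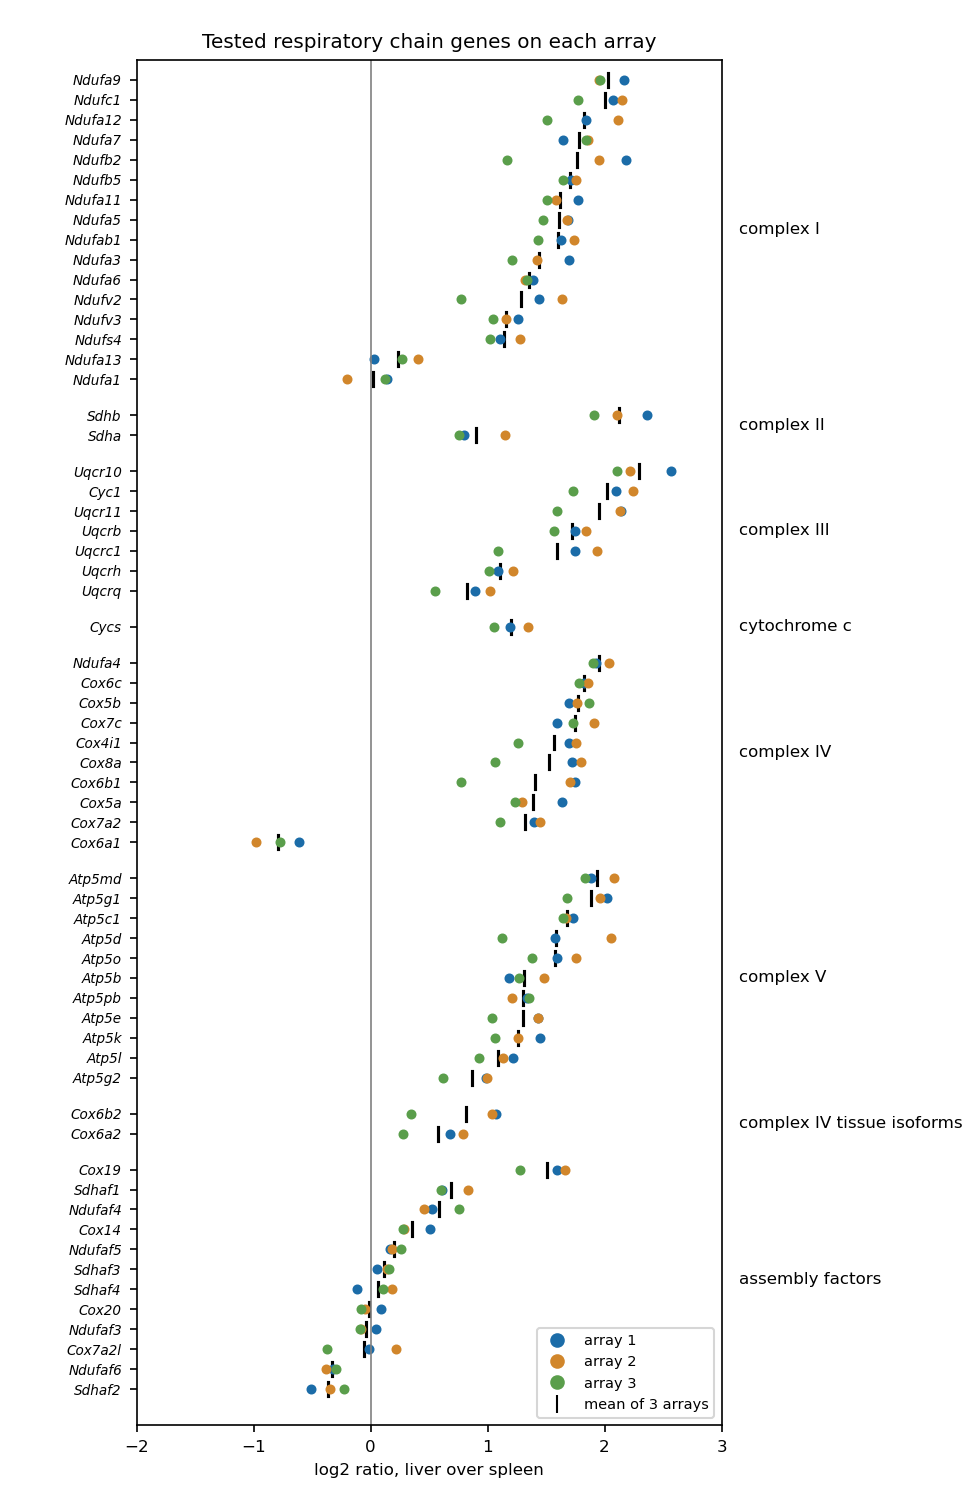
Log2 ratio of liver over spleen for the 61 tested respiratory chain genes, 1 row per gene, grouped by complex and ordered by mean; coloured points are arrays 1 to 3 and the black tick is their mean. Subunit rows lie mostly between 1 and 2 on the log2 scale, and Cox6a1 alone lies well below 0. Most assembly factors under the name rule lie around 0.

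Complexes I, III and IV had close medians and complex V a lower one. Complex III had the highest median, 1.72, followed by complex I at 1.61, complex IV at 1.55 and complex V at 1.31, and the 2 genes of complex II averaged 1.51. On single arrays the medians of complexes I, III, IV and V were 1.67, 1.75, 1.70 and 1.45 on array 1, 1.66, 1.94, 1.76 and 1.48 on array 2, and 1.39, 1.57, 1.25 and 1.27 on array 3. Complex III led on each array, whereas complex V was lowest on arrays 1 and 2 and complex IV on array 3. The order of complexes IV and V on array 3 depended on spots without a ratio on the other arrays. Cox6b1 of complex IV was 0.77 there with all spots and 1.77 from its spot with a ratio on all 3 arrays. With such complete spots only, complex V lay below complex IV on array 3 too. The members within a complex spread far more than the medians differed, from 0.82 to 2.30 in complex III and from 0.87 to 1.93 in complex V. These medians describe the genes measured and carry no test of a difference between complexes.

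**Figure D2:**
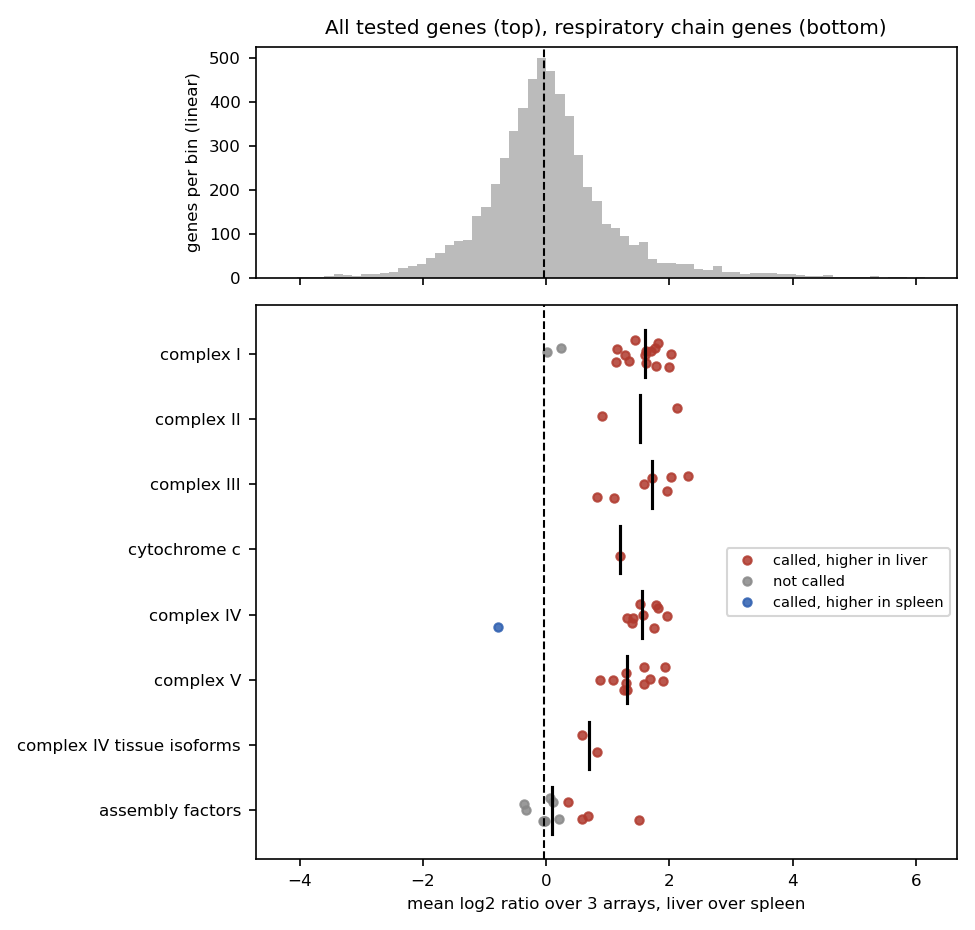
The upper panel is a histogram of mean log2 ratios over 3 arrays for all 5731 tested genes, and the lower panel shows the tested respiratory chain genes by complex, coloured by call, with a black tick at each median; the dashed line is the median of all tested genes (-0.03). Subunit genes of complexes I to V centre between 1.31 and 1.72, in the right shoulder of the histogram. Assembly factors under the name rule centre at 0.09.

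Complex I, the NADH dehydrogenase and the largest of the complexes, had 16 of its 18 subunit genes tested, and 14 of them were higher in liver. Ndufa9, which stabilises the junction of the membrane and matrix arms, was highest, with log2 ratios of 2.16, 1.95 and 1.96 on arrays 1, 2 and 3. All 3 values stood near 2, a 4.07-fold difference (mean 2.03 ± 0.12, SD, n = 3 arrays, limma adjusted p = 0.000137). The accessory subunit Ndufc1 followed at 2.07, 2.15 and 1.78 (mean 2.00 ± 0.20) and Ndufa12, found near the NADH-oxidising end, at 1.85, 2.11 and 1.51 (mean 1.82 ± 0.30). In each of these last genes array 3 gave the smallest value, and every array lay well above 0. Ndufa7 (1.78 ± 0.12), Ndufb2 (1.77 ± 0.53), Ndufb5 (1.71 ± 0.06), Ndufa11 (1.62 ± 0.14), Ndufa5 (1.62 ± 0.12), the acyl carrier protein Ndufab1 (1.60 ± 0.16), Ndufa3 (1.44 ± 0.24) and Ndufa6 (1.35 ± 0.04) filled the middle.

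Ndufv2, Ndufv3 and Ndufs4 had the smallest ratios among the called genes of complex I. Ndufv2, an iron-sulphur subunit that takes part in NADH oxidation, had values of 1.44, 1.64 and 0.77, of which array 3 stood apart (mean 1.28 ± 0.46, adjusted p = 0.00308). Ndufv3, an accessory subunit of the same module, stood at 1.26, 1.16 and 1.05 (mean 1.15 ± 0.11), and Ndufs4, whose loss in mice models Leigh syndrome, at 1.11, 1.28 and 1.02 (mean 1.14 ± 0.13). Ndufv1, which binds the flavin and NADH, had a value on array 3 only (0.30), and the spot of Ndufa8 had none.

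Ndufa1 and Ndufa13 were the subunits of complex I that did not pass. Ndufa1, a small membrane-arm subunit encoded on the X chromosome, had ratios of 0.14, -0.20 and 0.12, which straddle 0 (mean 0.02 ± 0.19, 95% interval -0.30 to 0.34, limma adjusted p = 0.906). Ndufa13, an accessory subunit also studied as a cell death regulator, had ratios of 0.03, 0.41 and 0.27 (mean 0.24 ± 0.19, 95% interval -0.09 to 0.56, adjusted p = 0.174). Both intervals end below the lowest called mean of complex I, that of Ndufs4. Each rests on 1 spot, so no other clone could check it.

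Complex II, succinate dehydrogenase, belongs both to the respiratory chain and to the citric acid cycle. Its iron-sulphur subunit Sdhb stood at 2.36, 2.11 and 1.91 (mean 2.13 ± 0.23, 4.37-fold, adjusted p = 0.000182), and both of its spots were high (1.97 and 2.28). The flavoprotein Sdha, where succinate is oxidised, stood at 0.80, 1.15 and 0.76 (mean 0.90 ± 0.22, 1.87-fold, adjusted p = 0.00296). No array of Sdha reached the lowest array of Sdhb, although their proteins sit side by side in the enzyme. The 4 spots of Sdha ranged from 0.52 to 1.32 in their means. The spots at 0.78 and 1.32 carry the same clone, so this range is not one between clones alone.

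Complex III, the cytochrome bc1 complex that hands electrons from coenzyme Q to cytochrome c, held the highest ratio of all members. Its small subunit Uqcr10 stood at 2.56, 2.22 and 2.11 (mean 2.30 ± 0.24, 4.91-fold, adjusted p = 0.000148), above all other members on arrays 1 and 3. Cyc1, the cytochrome c1 subunit with a catalytic haem, stood at 2.10, 2.24 and 1.73 (mean 2.02 ± 0.26), and Uqcr11 at 2.14, 2.13 and 1.59 (mean 1.96 ± 0.32). Uqcrb (1.72 ± 0.14) and the core protein Uqcrc1 (1.59 ± 0.44) followed.

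The hinge protein Uqcrh, which helps cytochrome c dock, and the ubiquinone-binding Uqcrq had the smallest ratios of complex III. Uqcrh stood at 1.09, 1.21 and 1.01 (mean 1.11 ± 0.10), and Uqcrq at 0.89, 1.02 and 0.55 (mean 0.82 ± 0.24, adjusted p = 0.00488, from 0.00113 to 1 over its alternatives). Without array 1 Uqcrq was no longer called (limma adjusted p = 0.0568). Such ranges, here and below, include the test against a 2-fold difference, which asks another question than the tests against 0. That test gave the upper end for Uqcrq, and below for Cox6a1, Cox6a2, Cox6b2 and Ndufaf4. In tests against 0 the highest adjusted p of Uqcrq was 0.0756, with the gene's own variance. The Rieske iron-sulphur protein Uqcrfs1 and the core protein Uqcrc2 were not tested: Uqcrfs1 had values on array 3 only, 2.52 at one spot and 0.20 at another, and Uqcrc2 had 1.68 on array 1 and 0.96 on array 3. Cytochrome c itself, Cycs, was higher in liver at 1.20, 1.34 and 1.06 (mean 1.20 ± 0.14, 2.30-fold, adjusted p = 0.000746), below 5 of the 7 tested genes of the complex that reduces it.

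Complex IV, cytochrome c oxidase, had 9 of 10 tested subunit genes higher in liver. Ndufa4 was counted here because its protein is now known as a subunit of complex IV in spite of its name, and it led with 1.93, 2.04 and 1.90 (mean 1.96 ± 0.07, adjusted p = 0.000135). Cox6c (1.82, 1.86 and 1.78, mean 1.82 ± 0.04) and the zinc-binding Cox5b (1.70, 1.76 and 1.87, mean 1.78 ± 0.09) were nearly the same on all 3 arrays. Cox7c (1.75 ± 0.16), the regulatory subunit Cox4i1 (1.57 ± 0.27), Cox8a (1.53 ± 0.41), Cox6b1 (1.41 ± 0.55), Cox5a (1.39 ± 0.22) and Cox7a2 (1.32 ± 0.18) followed. With Ndufa4 placed in complex I, as its symbol has it, the medians became 1.62 for complex I and 1.53 for complex IV.

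Cox6a1, a subunit that regulates the oxidase, was the member called on the spleen side, and its clones opposed each other. The gene mean was -0.62, -0.98 and -0.77 on the 3 arrays (mean -0.79 ± 0.18, limma adjusted p = 0.00402). It averages 5 spots, 4 of which carry 1 clone with an AU identifier, at means of -1.53 to -1.23, whereas the only other clone, with an AK identifier, gave 1.77, 1.44 and 1.47. The latter values lie among those of the other complex IV subunits. With the AW and AU clones left out the gene stood at 1.56 (adjusted p = 0.000395), and with clones rather than spots weighted equally at 0.09 (adjusted p = 0.558), against a range of 0.000264 to 1 over its alternatives. The side of Cox6a1 thus depended on how its clones were weighted, and the identity of the inserts was not analysed here.

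Isoforms of complex IV subunits known from other tissues were measured for Cox6a1 and Cox6b1. Cox6a2, the heart and skeletal muscle form of Cox6a1, stood at 0.68, 0.79 and 0.28 (mean 0.58 ± 0.27, limma adjusted p = 0.0197). Cox6b2, the testis form of Cox6b1, stood at 1.07, 1.04 and 0.35 (mean 0.82 ± 0.41, adjusted p = 0.0126). Cox6b2 lay below Cox6b1 on each array, whereas Cox6a2 lay above the gene mean of Cox6a1 on each array and below its AK clone. Both isoforms passed on the liver side, and both lost the call when array 1 was left out (adjusted p = 0.136 for Cox6a2, with alternatives from 0.0171 to 1, and 0.103 for Cox6b2, with alternatives from 0.00668 to 1) and with exact zeros kept as ratios (0.0526 and 0.0541).

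Some genes of contractile muscle were higher in liver in the same libraries, so the muscle isoform did not move alone. The troponin gene Tnnt2 stood at 2.11 ± 0.14, the myosin light chain Myl1 at 1.60 ± 0.07 and the muscle creatine kinase Ckm at 0.66 ± 0.22, whereas cardiac actin Actc1 was higher in spleen at -1.16 ± 0.28. Their part in the ratio of Cox6a2 was not tested. The isoform Cox8c, known from testis, had values of -0.33 on array 1 and -1.20 on array 3 and was not tested.

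Complex V, the ATP synthase, was higher in liver in all 11 subunit genes tested, from 0.87 to 1.93. Atp5b, the catalytic beta subunit, stood at 1.18, 1.48 and 1.27 (mean 1.31 ± 0.16, adjusted p = 0.000576). The central stalk genes Atp5c1 (gamma, 1.68 ± 0.04), Atp5d (delta, 1.59 ± 0.46) and Atp5e (epsilon, 1.30 ± 0.23) were on the same side. The peripheral stalk, which holds the head still, was measured by Atp5o (1.58 ± 0.19) and Atp5pb (1.30 ± 0.08).

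In the membrane part of complex V, Atp5md, a small subunit linked to the dimeric enzyme, was highest at 1.89, 2.08 and 1.83 (mean 1.93 ± 0.13, adjusted p = 0.000165). The subunits Atp5k (1.26 ± 0.19) and Atp5l (1.09 ± 0.15), which shape the dimer, were lower. The proton-carrying ring of c subunits is encoded by several genes for the same mature protein. Atp5g1 stood at 2.03, 1.96 and 1.68 (mean 1.89 ± 0.19), and Atp5g2 at 0.99, 1.00 and 0.62 (mean 0.87 ± 0.22, adjusted p = 0.00333). The ranges of these 2 genes did not overlap: the lowest array of Atp5g1 lay above the highest of Atp5g2. Cross-hybridisation between such paralogues on cDNA spots cannot be judged from the ratios.

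Most assembly factors build the complexes without staying in them, and most of those under the name rule did not pass the test. The 4 of 12 called on the liver side compare with 27.1% of all tested genes. Cox19, a copper-handling protein of complex IV assembly, had the largest ratio, with 1.59, 1.67 and 1.28 (mean 1.51 ± 0.21, adjusted p = 0.000456), although its 3 spots with a value on every array ranged from 1.09 to 2.42. Sdhaf1, which supports iron-sulphur insertion into complex II, stood at 0.61, 0.84 and 0.60 (mean 0.68 ± 0.13, adjusted p = 0.00546). Ndufaf4 stood at 0.53, 0.46 and 0.76 (mean 0.58 ± 0.15, adjusted p = 0.0111), and Cox14 at 0.51, 0.29 and 0.28 (mean 0.36 ± 0.13, adjusted p = 0.0494). The call of Ndufaf4 was lost when array 1 was left out (adjusted p = 0.0815) and with spots complete on all 3 arrays only (0.0625), over a range of 0.00740 to 1. In tests against 0 its highest adjusted p was 0.0870, with exact zeros kept as ratios (limma). Cox14 lost its call in 11 alternatives besides the test against a 2-fold difference. Among them were leaving out any 1 array (limma adjusted p from 0.0713 to 0.275) and taking the median of spots (0.0503). Without array 1 the assembly factors higher in liver numbered 1, Cox19.

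The other 8 tested assembly factors had means between -0.36 and 0.20. Ndufaf5 (0.20 ± 0.05), Sdhaf3 (0.12 ± 0.06), Sdhaf4 (0.06 ± 0.16), Cox20 (-0.01 ± 0.09), Ndufaf3 (-0.04 ± 0.07) and Cox7a2l (-0.05 ± 0.30), which helps form supercomplexes of III and IV, had adjusted p-values from 0.181 to 0.936 (limma). Ndufaf6 (-0.32, -0.38 and -0.29) and Sdhaf2 (-0.51, -0.35 and -0.23), which attaches the flavin to Sdha, were negative on all 3 arrays. Both narrowly missed the threshold (adjusted p = 0.0511 for each) and passed on the spleen side with centred arrays, Ndufaf6 at 0.0436 (from 0.0324 to 1 over its alternatives) and Sdhaf2 at 0.0396 (from 0.0396 to 1). The means of Ndufaf3, Sdhaf4 and Cox20 near 0 joined clones on opposite sides: 0.69 and -0.77 for Ndufaf3, 0.59 and -0.47 for Sdhaf4, and 0.26 and -0.28 for Cox20. Of the factors without a test, Ndufaf2 had 1.20 on array 1 and 1.46 on array 3, and Ndufaf7 and Ndufaf8 each had 0.30 on array 3 alone.

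Some members were spotted many times, which shows how closely clones of a gene repeat each other. Ndufa5, a subunit of the arm of complex I that reaches into the matrix, was named for 33 spots, and 27 of them had a ratio on all 3 arrays. Their means ran from 1.35 to 1.81 with a median of 1.62, and the SD over spots, 0.11, was below the SD over arrays of 0.13. On array 1 the 27 spots ran from 1.55 to 1.83. On array 3 they fell into 6 spots from 0.82 to 1.09 and 21 spots from 1.33 to 1.68, a split that array 1 did not show.

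Atp5l was named for 28 spots, of which 24 had a ratio on every array. For 22 of these the means lay at 0.96 or above with a median of 1.21, and 2 other clones stood at 0.18 and 0.43. Atp5g1, with 6 such spots, ran from 1.62 to 2.14 and Uqcrb, with 3, from 1.80 to 1.89. Among the 13 members with at least 3 such spots, Cox6a1 had the widest spread over spots (SD 1.32) and Cox19 the next (0.72). The SD over spots was below the SD over arrays only in Ndufa5, Uqcrb, Cox7a2 and Uqcrc1. In the rest of these members it was above, as in Atp5l (0.27 over spots, 0.14 over arrays). The SD over spots was taken from means of 3 arrays, and the SD over arrays from means of all such spots of the gene. Which of them is larger, also for Ndufa5 above, thus cannot show whether clones or arrays vary more. Counted by spot, 153 of 195 member spots had a ratio on all 3 arrays, 142 of these were positive on each array, and 134 were called on the liver side, against 29.7% of all 8284 spots so tested (59.9% were called in either direction). The 8 member spots called on the spleen side compare with 30.2% of all spots; 4 of them carry the AU clone of Cox6a1, and the rest are single spots of Ndufaf3, Ndufaf6, Sdhaf2 and Sdhaf4.

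**Figure D3:**
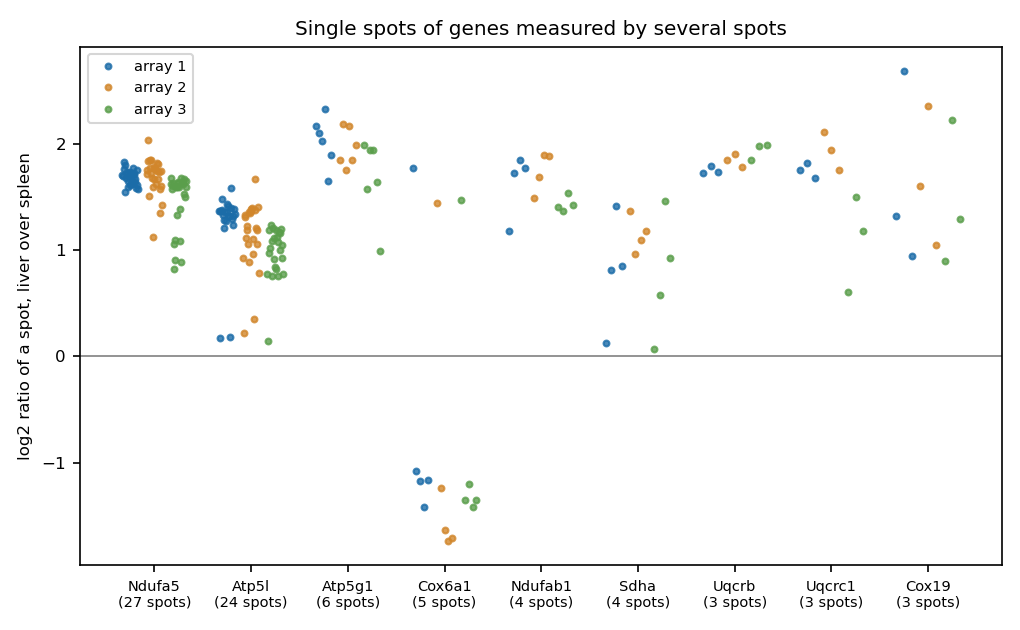
Log2 ratio of liver over spleen for single spots with a ratio on all 3 arrays, for 9 genes measured by several spots; each point is 1 spot on 1 array and colours mark arrays 1 to 3. The spots of Ndufa5 form a tight band on array 1 and spread further on array 3, Atp5l has 2 clones well below the others, and Cox6a1 has 4 spots below -1 and 1 spot above 1.

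Array 3 gave the smallest ratio for most members, 45 of the 61 tested. It held the value nearest 0 for 75.4% of tested members and for 46.9% of all tested genes, and the SD over all its spots was 0.976, the smallest of the 3 arrays. On array 3, 18 member spots from 15 genes had a ratio that arrays 1 and 2 lacked; 15 of these ratios lay above 0 and up to 0.5, with a median of 0.29 over the 18. Over all named spots seen on array 3 alone, 1331 of 1634 lay in the same range (median 0.25). In Ndufb2 and Cox6b1 the average with such spots was well below the complete spot: Ndufb2 was 1.17 on array 3 with all spots and 2.12 from its complete spot, and Cox6b1 was 0.77 against 1.77. Smaller gaps on array 3 were seen in Uqcrb (1.57 against 1.94), Uqcrq (0.55 against 0.87), Atp5g2 (0.62 against 0.93) and Atp5e (1.04 against 1.32). The average lay above the complete spots in Cox4i1 (1.26 against 1.04) and, by less, in Sdhaf3 and Ndufa5.

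With spots complete on all 3 arrays only, a setting chosen after seeing the data, Ndufb2 averaged 2.08 (limma adjusted p = 9.30e-05) and Cox6b1 1.74 (0.000133), with ranges over their alternatives of 5.55e-05 to 0.0761 and 0.000129 to 0.344. Ndufb2 then became the highest gene of complex I. The means of 8 members moved by more than 0.1, of which 7 rose and Ndufaf4 fell from 0.58 to 0.32, where it was no longer called (adjusted p = 0.0625, with alternatives from 0.00740 to 1). Array 3 was lowest for 42 of 61 members, and the median of subunits on array 3 rose from 1.27 to 1.40, still below 1.69 and 1.70 on arrays 1 and 2.

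**Figure D4:**
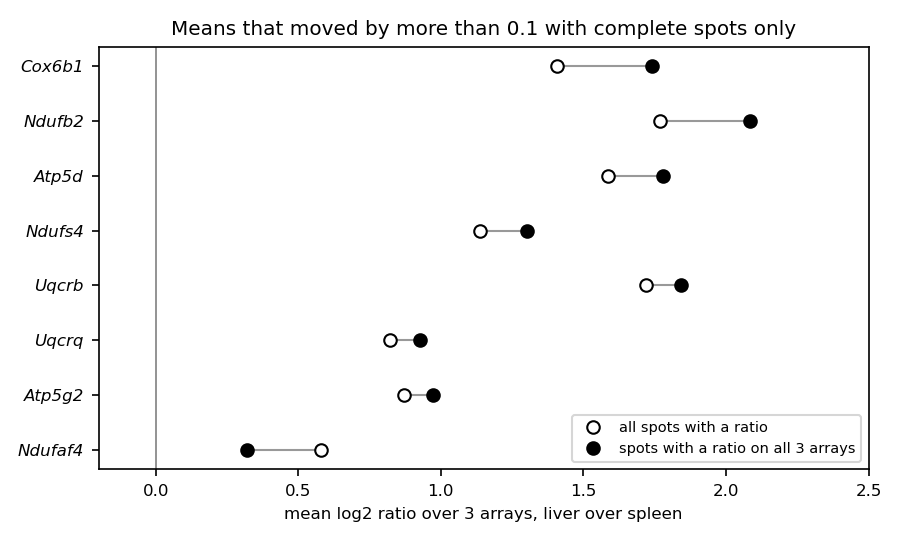
Mean log2 ratio of liver over spleen over 3 arrays for the 8 members whose mean moved by more than 0.1 when only spots with a ratio on all 3 arrays were averaged (filled circles) in place of all spots with a ratio (open circles). Cox6b1 moved from 1.41 to 1.74 and Ndufb2 from 1.77 to 2.08, while Ndufaf4 moved down from 0.58 to 0.32.

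Since nearly all subunit genes lay on the same side, their promoters were searched for letters bound by factors known to act on respiratory genes: NRF1, the ETS family with GABPA, YY1 and the estrogen-related receptors. RefSeq promoters of GRCm38.p6, from 250 bases before to 50 after the start, were held for 60 of the 69 members and for 27025 genes in all, of which 4598 were tested on the arrays. The letters GCGCATGCG for NRF1 occurred on either strand in 11 of 60 members (18.3%), against 1.95% of all genes and 3.96% of those tested. CCGGAAG for the ETS family occurred in 16 members (26.7%), against 9.93% and 18.8%, and AAGATGG for YY1 in 8 (13.3%), against 7.28% and 8.53%. TCAAGGTCA for the estrogen-related receptors was found in no member, and in 0.466% of all genes.

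The NRF1 letters were not confined to genes higher in liver: they occurred in 8 of the 44 members with a promoter that were called there and in 1 of 9 that were tested and not called (Ndufaf5), as well as in Cox6a1 and the untested Ndufa8. A match describes letters in a window and not a bound site. The following stretches show the NRF1 letters in a subunit of complex I, in cytochrome c, in subunits of complexes IV and V and in an assembly factor, written 5′ to 3′ on the gene's strand from RefSeq GRCm38.p6, with the matched letters in capitals. In all but Cycs, where they were read on the opposite strand, the capitals spell a palindrome that holds overlapping NRF1 matches on both strands, and the second run of capitals in Cox6a1 is the ETS match read on the opposite strand.
Ndufa11 (chr17:56717662-56717751, plus strand): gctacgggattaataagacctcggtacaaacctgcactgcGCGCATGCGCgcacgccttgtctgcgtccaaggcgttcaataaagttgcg
Cycs (chr6:50566582-50566670, minus strand): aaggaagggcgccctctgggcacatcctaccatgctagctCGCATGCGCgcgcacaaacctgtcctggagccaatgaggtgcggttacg
Cox6a1 (chr5:115348959-115349160, minus strand): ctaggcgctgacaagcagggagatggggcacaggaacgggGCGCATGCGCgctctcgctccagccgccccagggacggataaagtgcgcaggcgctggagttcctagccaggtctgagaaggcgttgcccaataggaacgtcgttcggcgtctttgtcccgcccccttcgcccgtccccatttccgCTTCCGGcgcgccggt
Atp5k (chr5:108434400-108434489, minus strand): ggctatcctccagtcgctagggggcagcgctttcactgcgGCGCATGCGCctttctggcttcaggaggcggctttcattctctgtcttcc
Ndufaf4 (chr4:24897930-24898019, plus strand): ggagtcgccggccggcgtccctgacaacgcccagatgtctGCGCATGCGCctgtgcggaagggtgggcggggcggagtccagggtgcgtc

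The log2 ratios of the genes printed were 1.62 for Ndufa11, 1.20 for Cycs, -0.79 for Cox6a1, 1.26 for Atp5k and 0.58 for Ndufaf4. Genes with the same 9 letters before their start thus spanned both signs of the gene mean, that of Cox6a1 resting on its clones as described above. The factors themselves were measured in part: Nrf1 stood at -0.25, -0.47 and 0.17 (mean -0.18 ± 0.32, adjusted p = 0.373), Yy1 at -0.74, -0.96 and -0.69 (mean -0.80 ± 0.14, adjusted p = 0.00325, higher in spleen), and Esrra, an estrogen-related receptor, at 0.66, 0.81 and 0.35 (mean 0.61 ± 0.23, adjusted p = 0.0140, higher in liver).

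Other mitochondrial genes around the chain were mostly higher in liver too, with a wider spread of values. Outside the name rule, 7 lists held 66 tested genes, of which 44 were higher in liver, 6 in spleen and 16 were not called, with a median of 0.81 (without the cytosolic Mdh1, 43 of 65 were higher in liver). Enzymes that feed electrons to coenzyme Q from fuels other than NADH and succinate had the largest ratios. All 4 tested were called on the liver side (median 3.13): Prodh2 of hydroxyproline breakdown (3.34 ± 0.20), the sulphide oxidase Sqor (3.29 ± 0.71), the electron transfer flavoprotein subunit Etfb (2.96 ± 0.11) and its dehydrogenase Etfdh (2.37 ± 0.95), which serve fatty acid and amino acid oxidation. Of 5 tested genes that make or handle coenzyme Q, 4 were higher in liver (median 1.16), with Coq9 at 1.86 ± 0.17 and Coq8a at 1.53 ± 0.47; Coq5 stood at 0.85 ± 0.08 and the prenyltransferase Coq2 was not called (-0.13 ± 0.20).

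The citric acid cycle, which supplies NADH and succinate, was mixed. Of 10 tested genes with those of pyruvate entry, 5 were higher in liver, 1 in spleen and 4 were not called (median 0.70). Of the 5, Mdh1 (2.38 ± 0.18), encodes the cytosolic malate dehydrogenase; without it 4 of 9 genes were higher in liver and the median was 0.36. Mdh2, the enzyme of the cycle itself, had a value on array 3 only (0.79). The succinate-CoA ligase subunit Suclg1 (2.55 ± 0.14) and the pyruvate carrier Mpc1 (2.51 ± 0.08) had larger ratios than any respiratory subunit tested. Citrate synthase Cs, often used as a measure of mitochondrial mass, had 0.65, 0.06 and 0.37 (mean 0.36 ± 0.30, adjusted p = 0.0950, with alternatives from 0.00162 to 1). Its mean was 0.21 without array 1, and it was called on the liver side without array 2 (0.51), with the median of its 4 spots (0.51) and with its largest spot (1.05). Idh3a (0.10 ± 0.18), Dld (0.20 ± 0.14) and Ogdh (0.09 ± 0.67) were not called, and Dlst, a subunit of the 2-oxoglutarate dehydrogenase complex measured by 1 spot, was higher in spleen (-1.11 ± 0.42, adjusted p = 0.00426).

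Carriers that exchange substrates of the ATP synthase were higher in liver, and the synthase's inhibitor was higher in spleen. The ADP/ATP carrier Slc25a5 stood at 1.52, 1.44 and 1.47 (mean 1.48 ± 0.04) and the phosphate carrier Slc25a3 at 0.96, 0.86 and 1.04 (mean 0.96 ± 0.09, adjusted p = 0.00137). Atpif1, which binds complex V and blocks ATP hydrolysis when the proton gradient is lost, was higher in spleen at -1.34, -1.03 and -1.10 (mean -1.16 ± 0.16, limma adjusted p = 0.000923), while all 11 tested subunits of the enzyme were higher in liver. Of the 9 tested carriers, porins and related genes, 6 were higher in liver, 1 in spleen and 2 were not called (median 1.21). The citrate carrier Slc25a1 (3.19 ± 0.09) and the creatine kinase Ckmt2 (1.99 ± 0.43) were the highest, and Ckmt1 (0.12 ± 0.10) and the porin Vdac2 (0.28 ± 0.27) were not called.

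Assembly factors outside the name rule were called more often on the liver side than those within it, a difference that was not tested. Of 19 tested, 15 were higher in liver, 1 in spleen and 3 were not called (median 0.81), with Coa7 (1.89 ± 0.35) and Cmc1 (1.61 ± 0.18), both of complex IV assembly, the highest. Sco1, a copper chaperone of the oxidase, was higher in spleen as a mean of 3 spots (-0.49 ± 0.21, adjusted p = 0.0245), but their median was 0.29; Coa4, Cmc2 and Uqcc1 were not called. Of 12 tested genes of inner membrane structure, fission and fusion, 8 passed as higher in liver, 1 as higher in spleen and 3 not at all (median 0.60), from the cardiolipin synthase Crls1 (1.40 ± 0.71) and the fusion protein Mfn1 (1.30 ± 0.10) down to the cardiolipin remodelling enzyme Taz (-0.79 ± 0.18).

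Of 7 tested genes that maintain the mitochondrial genome or regulate its biogenesis, 2 were higher in liver (Mterf4, 0.81 ± 0.42, and Esrra), 2 in spleen (Ssbp1, -0.47 ± 0.19, and Yy1) and 3 were not called (median 0.09). The mitochondrial transcription factor Tfam was among those not called at 0.24, 0.19 and 0.34 (mean 0.25 ± 0.07, adjusted p = 0.111).

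**Figure D5:**
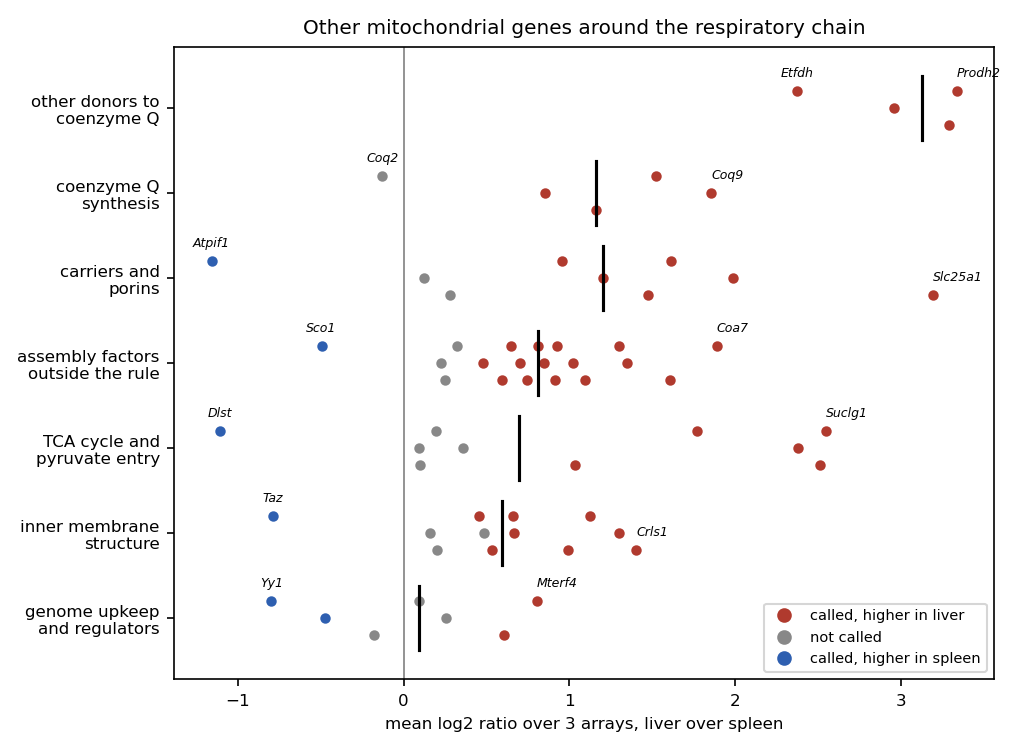
Mean log2 ratio of liver over spleen over 3 arrays for tested genes of the 7 other mitochondrial lists, 1 point per gene coloured by call, with a black tick at each list's median and the lowest and highest gene of each list named. Donors to coenzyme Q lie rightmost, between 2.37 and 3.34, and Atpif1 and Dlst lie leftmost, at -1.16 and -1.11.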

How the data were processed

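The deposited values, 1 log2 ratio per spot and array, were used as the authors gave them; the sources used here do not describe their correction, normalization or filtering. Base 2 was inferred, since the largest values then equal 100-fold. Spots were named from the platform annotation: 12336 carried a single gene, 61 several and 3876 none, and the symbols of all 69 members matched RefSeq by Entrez identifier without a change. Exact zeros were taken as missing, spots of a gene were averaged per array, and genes with 3 values were tested with limma 3.58.1 in R 4.3.3 (lmFit with an intercept, eBayes, two-sided, Benjamini-Hochberg over 5731 genes). The fit left 2 residual degrees of freedom and eBayes added 3.51 (prior SD 0.24). An exact sign-flip test of 3 arrays cannot go below p = 0.25 and was not used. On simulated data with 5731 genes and 50 changed at each size, log2 ratios of 0.5, 1, 2 and 4 were recovered for 2%, 56%, 90% and 92% of genes, with 6 false calls. Far fewer genes were changed there than the 54.9% called in the data. The Benjamini-Hochberg cut-off depends on that share, so the simulated rates do not give the power in the data. A fit to single spots was added after seeing the data. Errors are SD over 3 arrays, whose number limits the precision; channel intensities were not used here. Named in full were, per complex, the 3 highest and 2 lowest tested members, those not called or on the other side, genes with opposed spots, paralogue pairs and members with fewer than 3 values, and per other list the 2 highest and 2 lowest genes and those apart from most; further members were named so that each is accounted for. Members and lists were chosen with earlier results of these data known.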

Additional observations from a re-analysis of the deposited data

How the results depend on the processing

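All 50 members called on the liver side kept a positive sign under each of 16 alternatives in which they were tested, and 36 of them kept the call in all alternatives other than the test against a 2-fold difference. That test left 23 members called on the liver side (against 7.31% of all genes), 22 subunits and 1 assembly factor. The subunits numbered 8 in complex I, 1 in complex II, 4 in complex III, 5 in complex IV and 4 in complex V. It left 0 members in spleen, 15 and 0 of the other mitochondrial genes in liver and spleen, and 419 and 273 of all genes. With each gene's own variance, 869 and 592 of all genes, 27 and 2 other mitochondrial genes and 2 assembly factors were called. In that setting 14 of the 61 tested members lost their call. Among them were the subunits Atp5d, Atp5g2, Cox6b1, Cox8a, Ndufb2, Ndufv2, Sdha, Uqcrc1 and Uqcrq on the liver side and Cox6a1 on the spleen side. The adjusted p-values of these subunits with their own variance ran from 0.0579 (Cox6a1) to 0.104 (Cox6b1). Exact zeros kept as ratios lowered the medians to 1.35 for complex I, 1.42 for complex III, 1.35 for all subunits, 1.09 for all members and 0.60 for other mitochondrial genes, with 2 assembly factors in liver, 2 members in spleen, and Ogdh at -0.0509. Taking the largest spot raised complex V to 1.53, other mitochondrial genes to 1.00 and Cox6a1 to 1.56. Cox6a1 also turned to 1.56 without AW and AU clones and to 0.0935 with clones averaged first, which left 0 members in spleen in both settings; 3 members were in spleen with centred arrays and 3 with complete spots only (in both, Cox6a1, Ndufaf6 and Sdhaf2). Near 0, Ndufa1 turned to -0.000248 with centred arrays, Ogdh to -0.00163 with scaled arrays, and Sco1 to 0.29 with the median of spots. Leaving out 1 array gave 938 to 1530 genes in liver and 903 to 1813 in spleen, 1 to 4 assembly factors in liver with a median of 0.10 to 0.15, 1 to 2 members in spleen, and a complex V median of 1.35 to 1.43. Without 1 array, signs near 0 changed for Cox20 (-0.0659 to 0.0219), Cox7a2l (-0.19 to 0.10), Ndufa1 (-0.0386 to 0.131), Mterf3 (-0.0203 to 0.257), Ogdh (-0.29 to 0.29), Sdhaf4 (-0.0028 to 0.15) and the median of genome upkeep genes (-0.0203 to 0.257). The cause of these shifts was not tested. Updated symbols changed no member. Averaging clones first, using complete spots only and leaving out Mdh1 were chosen after seeing the data. No paired analysis was possible because the arrays form a single group.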
